A study of Mus musculus with 24 samples.

Results

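The Kruppel-like factors described here are 10 transcription factor genes, Klf2, Klf3, Klf4, Klf6, Klf7, Klf9, Klf10, Klf11, Klf12 and Klf13. They were taken by gene symbol from a table of read counts for 56791 genes, and all 10 had a row. Bulk RNA sequencing had been run on regulatory T cells (Tregs, suppressive CD4 T cells defined by the transcription factor Foxp3) and on B cells. The cells were sorted from tumour-infiltrating lymphocytes or from the draining lymph nodes, in mice with B16-F0 melanoma, a transplantable pigmented tumour. Animals of both genotypes carried Foxp3-Cre, with YFP in the series title, so Cre recombinase was driven by the Foxp3 gene in all of them. Those labelled KO were Foxp3-Cre Appl2f/f, with loxP-flanked Appl2, and those labelled WT were Foxp3-Cre alone. The 8 groups of 3 libraries were tumour Tregs labelled KO and WT, tumour B cells labelled KO and WT, lymph node Tregs labelled KO and WT, and lymph node B cells labelled KO and WT. B cells are not the cell type in which Foxp3 normally drives Cre. Ages are not given, nor whether the 3 libraries of a group are from separate mice. The p-values therefore measure the spread between these libraries, which may be technical.

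Kruppel-like factors bind CACCC and GC-rich boxes through a run of C2H2 zinc fingers at their C-terminus and differ in the N-terminal part that recruits coactivators or corepressors. In lymphocytes the best known member is KLF2, which holds naive T cells in a quiescent state and maintains the receptors for lymph node homing and exit. KLF4 can restrain proliferation of T cells in mice, and KLF10 is a TGF-beta-inducible factor that supports Foxp3 expression in mouse Tregs. KLF3 and KLF12 repress through the corepressor CtBP, whereas KLF9, KLF10, KLF11 and KLF13 can recruit the Sin3A and histone deacetylase complex.

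Libraries held 6245822 to 16239055 counts and 18025 to 21217 genes with at least 1 read. Appl2, which codes for an endosomal adaptor protein, averaged 24.6 ± 3.16 CPM in tumour Tregs labelled KO and 53.7 ± 4.25 CPM under the WT label (SD, n = 3), a log2 fold change of -1.12 ± 0.10 (adjusted p = 5.5e-12, edgeR). CPM are counts per library of 1000000, with libraries scaled by TMM. It was also lower under the KO label in tumour B cells, by -1.53 ± 0.16 (adjusted p = 5.8e-06, edgeR), and in lymph node B cells, by -1.08 ± 0.13 (adjusted p = 2.2e-07, edgeR). In lymph node Tregs Appl2 went against the label, at 26.2 ± 3.02 CPM in the KO-labelled libraries and 22.2 ± 3.803 CPM under the WT label, a log2 difference of 0.23 ± 0.12 (adjusted p = 0.16, edgeR). Every direction given for lymph node Tregs between genotypes therefore follows the label alone. Appl2 also moved with the tissue under the WT label, higher in the tumour by 1.28 ± 0.10 in Tregs and 0.96 ± 0.12 in B cells. At 24.6 CPM, tumour Tregs labelled KO lay near both lymph node Treg groups. Melanoma markers differed by label in the tumour too, at 2708 to 2890.5 CPM (WT) and 47.4 to 57.6 CPM (KO) in Tregs. In tumour B cells they were at 712 to 842 CPM (WT) and 39.9 to 43.3 CPM (KO). The part of other cells in the Appl2 levels was not tested. In tumour B cells the libraries KO replicate 1 and WT replicate 2 were unlike the rest of their groups: pairs with either had a chi-square per gene of 3.72 to 4.99, against a median of 2.61 over all replicate pairs. Treg markers summed to 2392 to 2483 CPM in tumour Tregs labelled KO and 3425 to 3522 CPM under the WT label, and to at most 60.0 CPM in tumour B cells. B cell markers summed to 3670.3 to 4265 CPM in KO-labelled tumour B cells and 3549 to 3654 CPM under the WT label.

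Per kilobase of exon, the only scale on which levels of different genes are compared here, Klf6, Klf2 and Klf4 led the family. Klf6 was the highest member in all 4 Treg groups, at 116 ± 1.68 CPM per kilobase in tumour Tregs labelled KO and 53.2 ± 1.64 under the WT label (SD, n = 3). Klf2 was the highest in the B cells labelled WT of both tissues and in lymph node B cells labelled KO. Tumour B cells labelled KO differed from the other groups in that Klf4 led, at 179.9 ± 12.3 CPM per kilobase, ahead of Klf6 at 99.5 ± 9.104 and Klf2 at 82.8 ± 28.4, and the libraries of Klf6 and Klf2 overlapped. Klf12 was the lowest member in every group but lymph node B cells labelled WT, where Klf12, Klf11 and Klf10 had means of 0.5295 ± 0.134, 0.474 ± 0.0734 and 0.4404 ± 0.0395. Klf13 held the 3rd or 4th place in each group, between 8.01 ± 0.511 CPM per kilobase in tumour B cells labelled WT and 12.5 ± 0.7403 in tumour Tregs labelled KO.

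**Figure D1:**
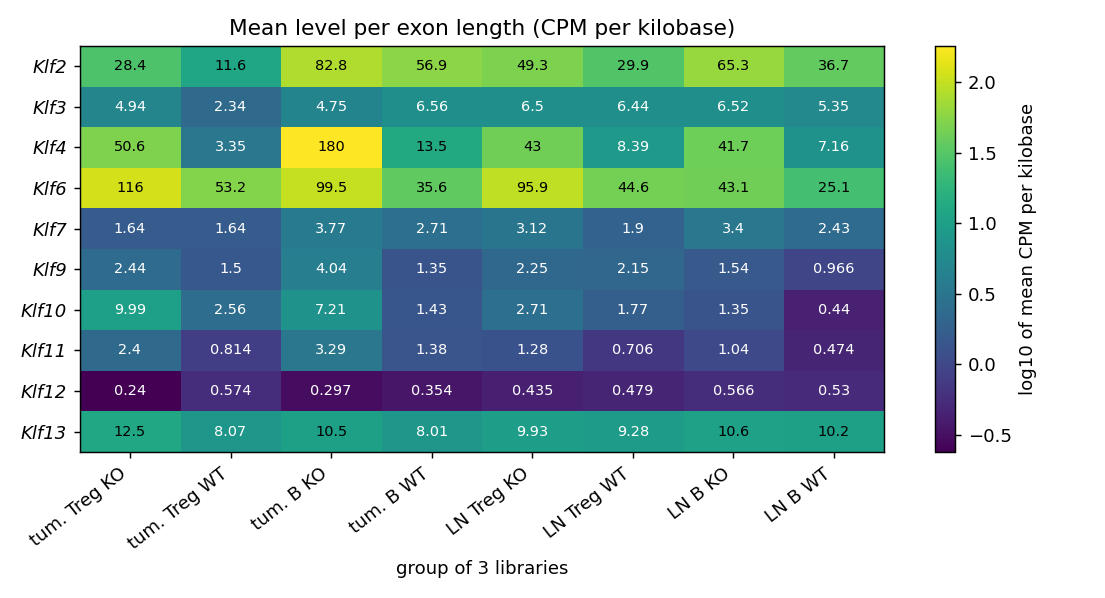
Mean level of each of the 10 genes in each of the 8 groups of 3 libraries, in CPM per kilobase of exon, printed in each cell and coloured on a log10 scale. Klf6, Klf2 and Klf4 are the brightest rows, and the brightest single cell is Klf4 in tumour B cells labelled KO, at 179.9 CPM per kilobase.

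Summed over the 10 genes, the family reached 229 ± 3.09 CPM per kilobase in tumour Tregs labelled KO and 85.6 ± 2.33 in those labelled WT. In tumour B cells the sums were 396 ± 7.14 under the KO label and 128 ± 3.65 under the WT label. Lymph node Tregs had 214 ± 5.53 (labelled KO) and 105.7 ± 2.74 (labelled WT), and lymph node B cells had 175 ± 8.23 (KO) and 89.4 ± 1.99 (WT). Klf4 made up 22.1% of the sum in tumour Tregs labelled KO and 3.91% in those labelled WT. The Klf4 share was 45.5% in tumour B cells labelled KO and 10.6% in those labelled WT. Klf6 took 50.7% of the sum in tumour Tregs labelled KO and 62.1% in those labelled WT, so its share there was smaller where its own level was higher. In lymph node Tregs the Klf6 share was 44.7% under the KO label and 42.2% under the WT label. It was 25.2% (KO) and 27.8% (WT) in tumour B cells and 24.6% (KO) and 28.1% (WT) in lymph node B cells.

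For Klf2, Klf4, Klf6 and Klf3 the 250 bases before the start are shown, from RefSeq on GRCm38.p6, 5′ to 3′ on the strand of the gene. Klf2, Klf4 and Klf6 are among the 5 members that rose under the KO label in all 4 comparisons. Klf3 rose in 2 of them and fell in 1. RefSeq promoters were matched for 9 of the 10 members. Klf10 and Klf11 also rose in all 4 comparisons, but Klf10 had no promoter matched and is named only. Capitals mark matches, on either strand, to the cAMP response element TGACGTCA, its 5-base core TGACG, the AP-1 site TGANTCA, the CACCC box, the CArG box bound by serum response factor and the MEF2 box. The core lies inside the full cAMP response element, and adjoining matches share 1 run of capitals. The Klf2 sequence is chr8:72318812-72319061 on the plus strand, that of Klf4 is chr4:55532476-55532725 on the minus strand, that of Klf6 is chr13:5861239-5861488 on the plus strand and that of Klf3 is chr5:64803271-64803520 on the plus strand.
Klf2: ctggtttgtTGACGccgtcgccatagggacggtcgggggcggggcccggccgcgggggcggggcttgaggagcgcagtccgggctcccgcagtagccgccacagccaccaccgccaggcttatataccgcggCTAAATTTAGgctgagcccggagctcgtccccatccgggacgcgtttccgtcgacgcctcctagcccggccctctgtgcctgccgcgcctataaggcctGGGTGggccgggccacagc
Klf4: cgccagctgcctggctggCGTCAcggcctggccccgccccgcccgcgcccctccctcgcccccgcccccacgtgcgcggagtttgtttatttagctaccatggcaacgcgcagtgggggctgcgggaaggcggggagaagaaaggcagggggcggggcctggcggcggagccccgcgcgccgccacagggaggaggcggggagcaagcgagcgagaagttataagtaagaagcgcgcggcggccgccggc
Klf6: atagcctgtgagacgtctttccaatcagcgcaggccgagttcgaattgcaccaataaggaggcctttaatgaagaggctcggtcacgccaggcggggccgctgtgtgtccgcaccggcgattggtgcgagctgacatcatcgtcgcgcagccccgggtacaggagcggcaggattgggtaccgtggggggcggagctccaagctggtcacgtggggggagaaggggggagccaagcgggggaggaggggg
Klf3: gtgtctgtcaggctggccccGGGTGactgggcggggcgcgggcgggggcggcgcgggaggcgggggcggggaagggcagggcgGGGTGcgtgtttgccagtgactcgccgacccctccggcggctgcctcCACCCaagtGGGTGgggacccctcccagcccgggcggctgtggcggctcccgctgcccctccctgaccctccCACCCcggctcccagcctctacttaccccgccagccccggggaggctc
The Klf2 sequence held 1 core of the cAMP response element at base -241 counted from the start, 1 MEF2 box at base -118 and 1 CACCC box at base -19. The Klf4 sequence held 1 core, at base -232, and no other match, and the Klf6 sequence held none of the 6 motifs. The Klf11 sequence, not shown, also held none of the 6 motifs. The Klf3 sequence held 5 CACCC boxes and no other match. Whether any of these motifs has a part in the changes was not tested. Across the 9 members with a sequence, 5 held the core, 6 a CACCC box, 1 (Klf9) the AP-1 site, 1 (Klf2) the MEF2 box and 0 the full cAMP response element or the CArG box. Among all 32851 promoters of the table the shares were 17.8% for the core, 52.0% for the CACCC box, 6.75% for the AP-1 site, 2.92% for the MEF2 box, 1.55% for the full element and 1.47% for the CArG box. The 4 sequences shown had a GC content of 71.2% for Klf2, 74.0% for Klf4, 64.8% for Klf6 and 78.4% for Klf3, against a median of 52.4% over all promoters. The MEF2 box was added to the search after the sequences had been seen.

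Between genotype labels, most members were higher in the libraries labelled KO. In tumour Tregs 8 of 10 rose and 1 fell, beside 27.3% of 14442 genes tested that rose and 27.2% that fell, and the members' median log2 fold change was 1.10 against -0.02 over all genes. In tumour B cells 7 rose and 1 fell, beside 21.3% and 18.8% of 13483 genes, with a median of 0.90 against -0.03. Without the 2 tumour B cell libraries that stood apart, a choice made after the data had been seen, 9 members passed, beside 42.2% of 13630 genes. Lymph node Tregs had 6 members higher and 0 lower by label, beside 13.8% and 11.5% of 14613 genes, with a median of 0.65 against -0.01. Lymph node B cells had 8 members higher and 0 lower, beside 11.0% and 10.1% of 13608 genes, with a median of 0.73 against -0.01. Scaling the libraries by their totals moved the median of all genes to -0.14 in tumour Tregs and -0.28 in tumour B cells and the calls towards lower. All genes then split into 21.9% higher and 34.5% lower in tumour Tregs, 13.2% and 33.3% in tumour B cells, 11.7% and 16.3% in lymph node Tregs and 8.72% and 12.9% in lymph node B cells. The members that passed under that scaling were 8 higher and 1 lower in tumour Tregs, 5 and 1 in tumour B cells, 6 and 0 in lymph node Tregs and 8 and 0 in lymph node B cells. The 5 genes Klf2, Klf4, Klf6, Klf10 and Klf11 rose in all 4 comparisons. Klf3 and Klf12 were the 2 members that fell in any of them. Changes are log2 fold changes, KO over WT label, and a gene passed at a Benjamini-Hochberg adjusted p under 0.05. The value after ± on a change is an approximate standard error. It was derived as the absolute log2 fold change divided by the square root of edgeR's quasi-likelihood F statistic, so it adds no evidence beyond the test.

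**Figure D2:**
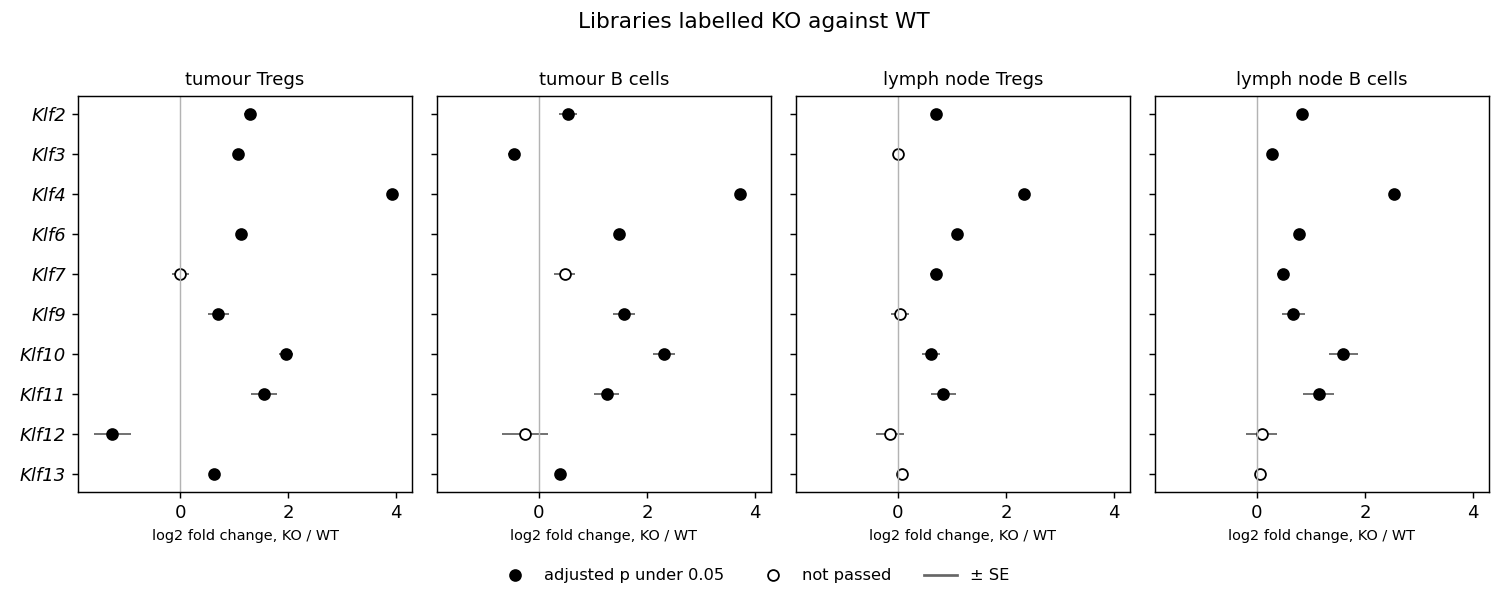
Log2 fold change of each of the 10 genes, libraries labelled KO over libraries labelled WT, in tumour Tregs, tumour B cells, lymph node Tregs and lymph node B cells (6 libraries each). Bars are ± 1 approximate standard error, derived from the F statistic, and filled points passed at an adjusted p under 0.05. Klf4 lies farthest to the right in each panel, at 3.92, 3.73, 2.34 and 2.54, and Klf12 is farthest to the left in tumour Tregs, at -1.25.

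Transcripts of other programmes and other cells moved with the genotype label in the same libraries. Immediate early genes, transcribed within minutes of stimulation or cell handling, summed to 7431 to 7835 CPM in tumour Tregs labelled KO and 2388 to 2452 CPM under the WT label, and 14 of 15 tested rose. Their sums were 9634 to 9959 (KO) and 3457 to 3740.1 CPM (WT) in tumour B cells, 5589.6 to 5814 (KO) and 2417 to 2456 CPM (WT) in lymph node Tregs and 5725 to 5829 (KO) and 1728 to 1842 CPM (WT) in lymph node B cells. Heat shock genes rose for 9 of 9 tested in tumour Tregs, tumour B cells and lymph node Tregs and for 7 of 9 in lymph node B cells. B cell markers rose for 8 of 8 tested in tumour Tregs and summed to 50.2 to 54.3 CPM under the KO label and 3.33 to 6.02 CPM under the WT label, where Cr2 was at 0. They rose for 10 of 10 in lymph node Tregs, with 247 to 261 CPM under the KO label and 51.99 to 55.4 CPM under the WT label. Markers of CD8 T and NK cells rose for 8 of 8 in tumour Tregs, with 250.4 to 257 CPM (KO) and 41.6 to 50.6 CPM (WT), and for 6 of 6 in tumour B cells, with 47.6 to 55.7 CPM (KO) and 4.07 to 8.07 CPM (WT). T cell markers rose for 10 of 10 in tumour B cells, with 481 to 511 CPM (KO) and 205 to 223 CPM (WT). T cell markers fell for 7 of 10 and rose for 1 in lymph node B cells, with overlapping sums of 249 to 264 CPM (KO) and 252 to 264 CPM (WT). Macrophage and monocyte markers rose for 6 of 6 in tumour Tregs, with 88.5 to 94.9 CPM (KO), where C1qc was at 0, and 37.2 to 49.1 CPM (WT). Of 8 tested in lymph node Tregs 2 rose, and the sums were 98.98 to 107 CPM (KO) and 40.7 to 43.6 CPM (WT). They fell for 9 of 10 in tumour B cells, with 84.2 to 94.1 CPM (KO) and 256 to 277 CPM (WT). Melanoma markers fell for 10 of 10 in tumour Tregs, with 47.4 to 57.6 CPM (KO) and 2708 to 2890.5 CPM (WT) and Oca2 at 0 under the KO label. In tumour B cells they fell for 9 of 9, with 39.9 to 43.3 CPM (KO) and 712 to 842 CPM (WT) and Gpr143 at 0 under the KO label. Stromal and endothelial markers fell for 8 of 9 in lymph node Tregs, with 110.0 to 125 CPM (KO) and 253 to 292 CPM (WT) and Emcn and Pdgfrb at 0 under the KO label. They fell for 5 of 6 in lymph node B cells, with 211 to 229.8 CPM (KO) and 314 to 341 CPM (WT) and Emcn at 0 under both labels, and for 4 of 5 in tumour B cells. The part of these transcripts in the changes of the Kruppel-like factors was not tested, and in bulk RNA fewer cells of a type and less RNA per cell cannot be told apart.

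Klf4 changed more than any other member in each of the 4 comparisons. The gene lies at chr4:55527143-55532466 of GRCm39 (minus strand) and shares no exon bases with another gene. In tumour Tregs it was read at 157, 159 and 147 CPM in the libraries labelled KO, against 9.38, 9.61 and 11.7 CPM under the WT label, a log2 change of 3.92 ± 0.089 (adjusted p = 5.0e-30, edgeR). Tumour B cells held 505, 573 and 567 CPM under the KO label and 43.4, 37.9 and 42.6 CPM under the WT label, a log2 change of 3.73 ± 0.089 (adjusted p = 2.6e-12, edgeR). Lymph node Tregs had 139, 133 and 121 CPM under the KO label and 26.4, 26.1 and 24.3 CPM under the WT label, a log2 difference of 2.34 ± 0.070 (adjusted p = 6.3e-21, edgeR). All 4 KO groups lay above all 4 WT groups for this gene, with no library of one kind within the range of the other. Lymph node B cells had 131, 123 and 128 CPM in the KO-labelled libraries and 24.5, 22.6 and 18.4 CPM under the WT label, a log2 change of 2.54 ± 0.085 (adjusted p = 2.2e-19, edgeR). The KO groups other than tumour B cells lay close together, at means of 154, 131 and 127 CPM, and the lymph node Tregs and B cells labelled KO overlapped. Tumour B cells labelled KO were the highest group, and tumour Tregs labelled WT the lowest at 10.2 ± 1.26 CPM, a ratio of group means of 53.7, the widest span of any member.

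Klf2, the homing and quiescence factor, rose in all 4 comparisons, but by less. The gene lies at chr8:73072877-73075500 of GRCm39 on the plus strand and shares no exon bases with another gene. Tumour Tregs held 51.9, 50.04 and 55.6 CPM in the KO-labelled libraries and 19.6, 21.2 and 23.5 CPM under the WT label, a log2 change of 1.29 ± 0.10 (adjusted p = 9.2e-14, edgeR). Lymph node Tregs held 88.9, 92.7 and 91.6 CPM under the KO label and 52.6, 55.8 and 57.5 CPM under the WT label, a log2 difference of 0.70 ± 0.064 (adjusted p = 6.1e-10, edgeR). B cells of the lymph node held 133, 118 and 111 CPM (labelled KO) and 71.5, 66.8 and 64.97 CPM (labelled WT), a log2 change of 0.83 ± 0.071 (adjusted p = 2.9e-10, edgeR). In these 3 comparisons the groups were well apart. In tumour B cells they were closer, at 213, 115 and 131 CPM in the KO-labelled libraries and 101, 114 and 101 CPM under the WT label, a log2 change of 0.54 ± 0.17 (adjusted p = 0.020, edgeR). There KO replicate 1 was far above the others and KO replicate 2 lay only just above the highest WT library. Without KO replicate 1 the change was 0.24 and did not pass (adjusted p = 0.058, edgeR), and it was 0.50 without WT replicate 1 or WT replicate 3 (adjusted p = 0.095 for each, edgeR). Without KO replicate 1 and WT replicate 2, the libraries that stood apart, it was 0.31 and passed (adjusted p = 0.0030, edgeR), an alternative chosen after the data had been seen. Scaled by library totals the change was 0.30 and did not pass (adjusted p = 0.19, edgeR), nor did it with DESeq2, at 0.54 (adjusted p = 0.16).

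Klf6, an early-response factor first described as a core promoter binding protein, rose in all 4 comparisons with little spread between replicates. It lies at chr13:5911481-5920393 of GRCm39 on the plus strand, with no shared exon bases. In tumour Tregs the libraries labelled KO had 507, 506 and 519 CPM and those labelled WT 237, 225 and 238 CPM, a log2 change of 1.13 ± 0.047 (adjusted p = 5.7e-22, edgeR). Tumour B cells had 392, 469 and 449 CPM under the KO label and 156, 159.9 and 152 CPM under the WT label, a log2 change of 1.48 ± 0.085 (adjusted p = 1.1e-08, edgeR). Both differences were far larger than the spread within a group. Lymph node Tregs had 436, 412 and 416 CPM (labelled KO) and 198, 205 and 184 CPM (labelled WT), a log2 difference of 1.09 ± 0.048 (adjusted p = 3.5e-17, edgeR). B cells of the lymph node had 196, 180.1 and 192 CPM (KO) and 106, 109 and 116 CPM (WT), a log2 change of 0.78 ± 0.058 (adjusted p = 1.8e-11, edgeR). No KO library overlapped a WT library of its own cell type and tissue.

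**Figure D3:**
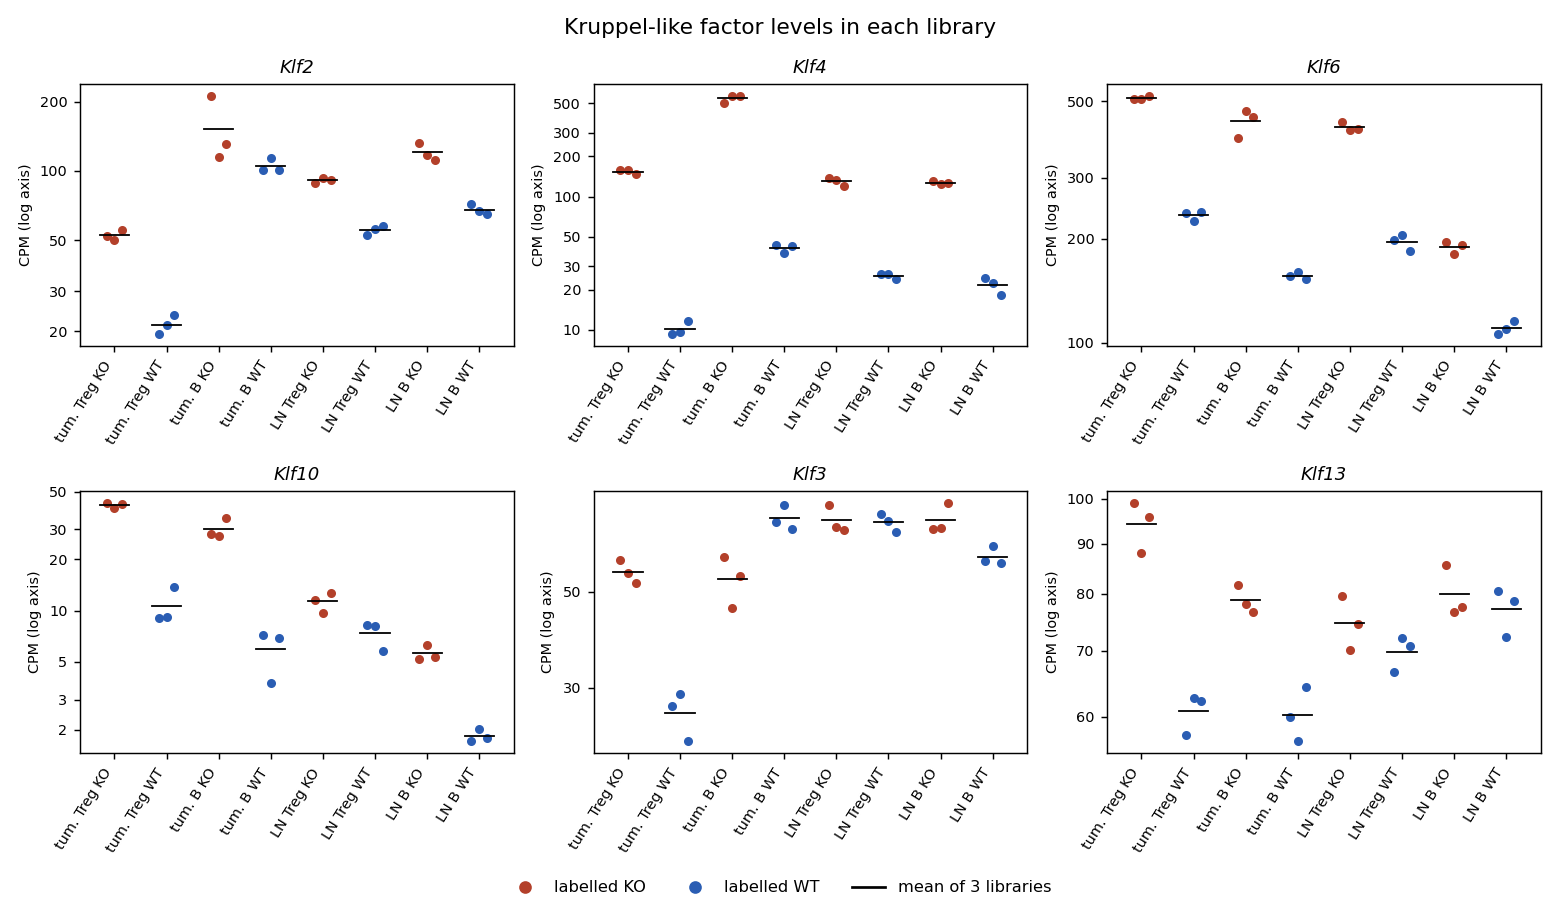
Level of Klf2, Klf4, Klf6, Klf10, Klf3 and Klf13 in each of the 24 libraries, in CPM on log axes that differ between panels, with red points for libraries labelled KO, blue for WT and a bar for the mean of 3. For Klf4, Klf6 and Klf10 the red points lie above the blue ones in every pair of groups, and for Klf3 the tumour B cell pair is the other way round. The first of the Klf2 points in tumour B cells labelled KO, at 213 CPM, stands above the other points of that panel.

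The TGF-beta-inducible pair, Klf10 and Klf11, followed. Klf10 (chr15:38291707-38300950 of GRCm39, minus strand) was read at 42.8, 40.00 and 42.4 CPM in tumour Tregs labelled KO and 9.02, 9.24 and 13.8 CPM under the WT label, a log2 change of 1.97 ± 0.13 (adjusted p = 1.5e-15, edgeR). Klf10 stood at 28.3, 27.4 and 34.8 CPM in KO-labelled tumour B cells and 7.198, 3.78 and 6.899 CPM with the WT label, a log2 change of 2.31 ± 0.21 (adjusted p = 1.2e-06, edgeR). The tumour libraries labelled KO thus held all of the highest values of this gene. Lymph node B cells held 5.22, 6.32 and 5.33 CPM (labelled KO) and 1.71, 2.03 and 1.78 CPM (labelled WT), a log2 change of 1.60 ± 0.28 (adjusted p = 6.1e-05, edgeR), from 200 and 63 counts over the 3 libraries. The lymph node Tregs differed least, with 11.5, 9.68 and 12.8 CPM under the KO label and 8.25, 8.14 and 5.81 CPM under the WT label, a log2 difference of 0.60 ± 0.17 (adjusted p = 0.0071, edgeR). It was 0.51 without KO replicate 3 and 0.46 without WT replicate 3, and then did not pass (adjusted p = 0.057 and 0.052, edgeR). Klf11 (chr12:24701273-24712788 of GRCm39, plus strand) was lower in abundance, at 10.4 ± 2.596 CPM in tumour Tregs labelled KO and 3.53 ± 1.200 CPM under the WT label (SD, n = 3), a log2 change of 1.56 ± 0.24 (adjusted p = 1.0e-06, edgeR). Its log2 change was 1.25 ± 0.23 (adjusted p = 0.00058, edgeR) in tumour B cells, at 14.3 ± 2.45 CPM (KO) and 5.97 ± 1.36 CPM (WT). It was 1.14 ± 0.29 (adjusted p = 0.0050, edgeR) in lymph node B cells, at 4.53 ± 0.835 CPM (KO) and 2.06 ± 0.319 CPM (WT). Lymph node Tregs had 6.35, 5.48 and 4.83 CPM under the KO label and 3.42, 2.45 and 3.33 CPM under the WT label, a log2 difference of 0.84 ± 0.23 (adjusted p = 0.0068, edgeR). The call was lost without KO replicate 1, at 0.75 (adjusted p = 0.054, edgeR). In each of the 4 comparisons the Klf11 libraries labelled KO lay above those labelled WT.

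The CtBP-binding repressors Klf3 and Klf12 were the members that fell with the KO label in 1 of the 4 cell populations, Klf3 in tumour B cells and Klf12 in tumour Tregs, and Klf3 rose in 2 others. Klf3 (chr5:64960731-64990244 of GRCm39, plus strand) shares 404 exon bases, 3.59% of its exon length, with Gm20033 on the opposite strand, and since it is not stated whether counting used the strand, reads there could come from either. In tumour Tregs Klf3 was read at 59.3, 55.2 and 52.3 CPM in the KO-labelled libraries and 27.2, 29.1 and 22.6 CPM under the WT label, a log2 change of 1.08 ± 0.10 (adjusted p = 6.4e-12, edgeR). In tumour B cells it was lower under the KO label, at 60.05, 45.9 and 54.3 CPM against 72.3, 79.5 and 69.6 CPM under the WT label, a log2 change of -0.46 ± 0.11 (adjusted p = 0.0043, edgeR). The groups did not overlap in either, and the directions were opposite. Scaled by library totals the change in tumour B cells was -0.71 (adjusted p = 0.00032, edgeR). Lymph node Tregs had 79.1, 70.7 and 69.6 CPM (labelled KO) and 75.6, 72.9 and 68.6 CPM (labelled WT), a log2 difference of 0.0019 ± 0.066 (adjusted p = 0.99, edgeR). Lymph node B cells had 69.7, 70.04 and 80.1 CPM under the KO label and 58.7, 63.6 and 58.2 CPM under the WT label, a log2 change of 0.28 ± 0.076 (adjusted p = 0.0066, edgeR), which was 0.22 without KO replicate 3 (adjusted p = 0.077, edgeR). Klf12 (chr14:100108068-100522115 of GRCm39, minus strand) was near the lower end of what the depth can resolve. It was read at 1.54, 2.08 and 1.41 CPM in tumour Tregs labelled KO and 2.89, 4.16 and 4.99 CPM under the WT label, 56 and 130 counts over the 3 libraries, a log2 change of -1.25 ± 0.35 (adjusted p = 0.0026, edgeR). The other 3 comparisons of Klf12 gave -0.15 ± 0.26 in the lymph node Tregs, -0.26 ± 0.43 in B cells of the tumour and 0.088 ± 0.29 in those of the lymph node, with standard errors larger than the differences (adjusted p = 0.73, 0.66 and 0.87, edgeR).

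Klf9 and Klf13, which recruit Sin3A, differed in how widely they changed. Klf9 (chr19:23118590-23145498 of GRCm39, plus strand), a glucocorticoid- and thyroid hormone-inducible factor, held 13.6, 9.14 and 12.5 CPM in tumour Tregs labelled KO and 8.12, 8.13 and 5.37 CPM under the WT label, a log2 change of 0.71 ± 0.20 (adjusted p = 0.0026, edgeR). Tumour B cells labelled KO had 17.8, 20.8 and 19.6 CPM and those labelled WT 5.08, 6.97 and 7.43 CPM, a log2 change of 1.58 ± 0.20 (adjusted p = 2.7e-05, edgeR). This was its largest difference, and the groups were well apart. In lymph node Tregs it had 10.3, 10.6 and 11.6 CPM (labelled KO) and 7.999, 10.4 and 12.7 CPM (labelled WT), with the KO libraries inside the range of the WT libraries and a log2 difference of 0.038 ± 0.16 (adjusted p = 0.89, edgeR). Lymph node B cells had 8.53, 6.85 and 6.88 CPM (KO) and 4.42, 4.898 and 4.63 CPM (WT), a log2 change of 0.67 ± 0.21 (adjusted p = 0.021, edgeR). It missed the threshold without KO replicate 1, WT replicate 1 or WT replicate 3, at 0.56, 0.64 and 0.67 (adjusted p = 0.096, 0.063 and 0.054, edgeR). Klf13 (chr7:63536099-63588663 of GRCm39, minus strand), known in T cells as a regulator of Ccl5, had 99.00, 88.1 and 95.8 CPM in tumour Tregs labelled KO and 57.5, 62.6 and 62.2 CPM under the WT label, a log2 change of 0.64 ± 0.072 (adjusted p = 1.4e-09, edgeR). Klf13 in tumour B cells had 81.6, 78.1 and 76.6 CPM (KO) and 59.9, 56.6 and 64.3 CPM (WT), a log2 change of 0.39 ± 0.088 (adjusted p = 0.0031, edgeR). That change was 0.14 and did not pass when libraries were scaled by their totals (adjusted p = 0.22, edgeR). In the lymph nodes the genotypes overlapped, and Klf13 differed by 0.083 ± 0.065 in Tregs and 0.052 ± 0.071 in B cells (adjusted p = 0.39 and 0.67, edgeR). Klf13 varied least of all members, with a ratio of 1.56 between its highest and lowest group means.

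Klf7 (chr1:64068606-64161441 of GRCm39, minus strand), a broadly expressed member known from neuronal outgrowth, shares 4 exon bases with Gm13748. It rose in lymph node Tregs, at 26.01, 25.1 and 24.9 CPM under the KO label and 15.3, 16.99 and 14.1 CPM under the WT label, a log2 difference of 0.70 ± 0.11 (adjusted p = 1.0e-05, edgeR). B cells of the lymph node had 27.8, 29.1 and 26.1 CPM (labelled KO) and 20.2, 21.7 and 17.3 CPM (labelled WT), a log2 change of 0.49 ± 0.11 (adjusted p = 0.0021, edgeR). In tumour Tregs the groups overlapped, with 13.8, 11.9 and 14.3 CPM (KO) and 12.1, 15.4 and 12.4 CPM (WT) and a log2 difference of 0.0049 ± 0.16 (adjusted p = 0.98, edgeR). Tumour B cells had 22.4, 36.8 and 32.8 CPM (KO) and 19.5, 26.1 and 20.5 CPM (WT), a log2 difference of 0.48 ± 0.19 (adjusted p = 0.060, edgeR). It passed without KO replicate 1, at 0.68 (adjusted p = 0.0055, edgeR), and without WT replicate 2, at 0.62 (adjusted p = 0.027, edgeR).

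Whether the genotype effect differed between tissues was tested as an interaction on 12 libraries. In Tregs 8 of 10 members passed, beside 34.1% of 15589 genes tested, and the lymph node side of each term follows a label that Appl2 did not follow. The effect was larger in tumour than in lymph node Tregs for Klf4, by 1.57 ± 0.12 (adjusted p = 1.1e-13, edgeR), for Klf10, by 1.35 ± 0.22 (adjusted p = 3.2e-06, edgeR), for Klf3, by 1.07 ± 0.12 (adjusted p = 1.1e-09, edgeR), for Klf2, by 0.58 ± 0.11 (adjusted p = 7.5e-05, edgeR), and for Klf13, by 0.54 ± 0.10 (adjusted p = 2.0e-05, edgeR). It was smaller in the tumour for Klf7, by -0.70 ± 0.18 (adjusted p = 0.0024, edgeR). For Klf6, which rose in both tissues, the effects differed by 0.031 ± 0.066 (adjusted p = 0.76, edgeR), and for Klf11 by 0.71 ± 0.35 (adjusted p = 0.12, edgeR). Klf9 and Klf12 passed narrowly, at 0.66 ± 0.26 (adjusted p = 0.046, edgeR) and -1.11 ± 0.43 (adjusted p = 0.040, edgeR). For Klf9 the term was 0.47 to 0.66 and did not pass without lymph node KO replicate 1 or 2, lymph node WT replicate 2 or 3, tumour KO replicate 1 or 3, or tumour WT replicate 3. For Klf12 it was -1.16 to -0.93 and did not pass without lymph node KO replicate 1 or 3, any of the 3 lymph node WT replicates, tumour KO replicate 1 or 3, or tumour WT replicate 2 or 3. Klf11 passed without tumour KO replicate 2, at 0.90, or tumour WT replicate 2, at 1.01.

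In B cells 5 of 10 members passed the same interaction, beside 20.9% of 14737 genes, 12.4% with a higher and 8.55% with a lower effect in the tumour. Scaled by library totals those shares were 7.52% and 17.1%, and 3 members passed. The effect was larger in tumour than in lymph node B cells for Klf4, by 1.18 ± 0.12 (adjusted p = 4.2e-07, edgeR), and for Klf6, by 0.69 ± 0.10 (adjusted p = 3.1e-05, edgeR). For Klf3 it was lower in the tumour, by -0.75 ± 0.14 (adjusted p = 0.00041, edgeR), since the gene fell there and rose in the lymph node. Klf9 and Klf13 passed at 0.90 ± 0.28 (adjusted p = 0.024, edgeR) and 0.32 ± 0.11 (adjusted p = 0.041, edgeR). The Klf9 term was 0.73 to 0.86 and did not pass without lymph node KO replicate 2 or 3, lymph node WT replicate 2, tumour KO replicate 2 or tumour WT replicate 1. The Klf13 term was 0.13 with library totals (adjusted p = 0.44, edgeR). It was 0.30 to 0.34 and did not pass without any 1 of lymph node KO replicates 2 and 3, lymph node WT replicates 1 and 3, the 3 tumour KO replicates and tumour WT replicates 1 and 2. Klf2 differed by -0.29 ± 0.21 (adjusted p = 0.35, edgeR), and by -0.60 without tumour KO replicate 1, where it passed (adjusted p = 0.00063, edgeR).

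Between tumour Tregs and tumour B cells the genotype effect differed for 4 members, beside 23.7% of 15553 genes, 11.6% with a higher and 12.1% with a lower effect in Tregs, or 14.9% and 9.57% when scaled by library totals. It was higher in Tregs for Klf3, by 1.57 ± 0.16 (adjusted p = 1.6e-07, edgeR), and for Klf2, by 0.77 ± 0.22 (adjusted p = 0.014, edgeR). It was lower in Tregs for Klf6, by -0.33 ± 0.10 (adjusted p = 0.015, edgeR), and for Klf9, by -0.85 ± 0.30 (adjusted p = 0.046, edgeR). Klf4, the gene with the largest change in both cell types, had a difference between them of 0.21 ± 0.13 (adjusted p = 0.25, edgeR), and Klf10 of -0.31 ± 0.27 (adjusted p = 0.45, edgeR). With library totals 3 members passed as higher and 0 as lower. Under that scaling the Klf6 and Klf9 terms were -0.23 and -0.75 and did not pass (adjusted p = 0.068 and 0.081, edgeR), whereas that of Klf13 was 0.37 and passed (adjusted p = 0.019, edgeR). The Klf2 term was 0.69 without tumour Treg WT replicate 1 (adjusted p = 0.053, edgeR). The Klf9 term was -0.92 to -0.70 and did not pass without Treg KO replicate 2 or 3, Treg WT replicate 1 or 2, B cell KO replicate 2 or 3, or B cell WT replicate 1. Klf7 passed without B cell KO replicate 1, at -0.67 (adjusted p = 0.030, edgeR).

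Tumour and lymph node were compared next within each cell type and genotype label. In Tregs labelled WT 2 members rose and 5 fell in the tumour, beside 21.4% of 14504 genes that rose and 19.9% that fell, and the median was -0.21 against 0.00 over all genes. Klf2 averaged 21.4 ± 1.99 CPM in tumour Tregs labelled WT and 55.3 ± 2.501 CPM in lymph node Tregs labelled WT (SD, n = 3), a log2 change of -1.37 ± 0.10 (adjusted p = 8.2e-14, edgeR). Klf3 averaged 26.3 ± 3.35 CPM in the tumour and 72.4 ± 3.51 CPM in the lymph node, a log2 change of -1.46 ± 0.090 (adjusted p = 3.2e-15, edgeR). Klf4 averaged 10.2 ± 1.26 CPM in the tumour and 25.6 ± 1.14 CPM in the lymph node, a log2 change of -1.32 ± 0.13 (adjusted p = 4.0e-10, edgeR). No tumour library reached the level of a lymph node library for any of these 3 genes. Markers of other cells moved with the tissue: melanoma markers were higher in the tumour for 10 of 10, at 2708 to 2890.5 CPM against 25.1 to 85.8 CPM in the lymph node, and CD8 T and NK cell markers for 6 of 7, at 41.6 to 50.6 CPM against 17.3 to 23.6 CPM. B cell markers were lower for 9 of 9, at 3.33 to 6.02 CPM in the tumour and 51.99 to 55.4 CPM in the lymph node, and stromal and endothelial markers for 9 of 9, at 97.02 to 103 CPM in the tumour and 253 to 292 CPM in the lymph node. Cr2 was at 0 in the tumour, Gpr143 and Ncr1 were at 0 in the lymph node, and the part of these cells was not tested. Klf6 went the other way, at 233 ± 7.201 CPM in the tumour and 196 ± 10.6 CPM in the lymph node, a log2 change of 0.25 ± 0.054 (adjusted p = 0.00024, edgeR). Klf9, Klf10 and Klf13 also passed, at -0.53 ± 0.20, 0.54 ± 0.19 and -0.20 ± 0.073, but their calls rested on single libraries. Klf9 was -0.35 without lymph node replicate 3, -0.36 without tumour replicate 3 and -0.54 without lymph node replicate 2, and did not pass in any of these (adjusted p = 0.22, 0.18 and 0.060, edgeR). Klf10 was 0.38 without lymph node replicate 3 and 0.30 without tumour replicate 3 (adjusted p = 0.15 and 0.28, edgeR), and Klf13 lost its call without lymph node replicate 2 or 3 or tumour replicate 1, at -0.19, -0.19 and -0.17. Klf7, Klf11 and Klf12 differed by -0.21 ± 0.14, 0.20 ± 0.31 and 0.26 ± 0.29 and did not pass.

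The same tissue comparison had another pattern in the Tregs labelled KO, where 5 members rose and 4 fell, beside 28.6% and 27.9% of 14506 genes, with a median of 0.18 against -0.01. Klf2 and Klf3 were again lower in the tumour, by -0.79 ± 0.068 (adjusted p = 4.4e-13, edgeR) and -0.40 ± 0.072 (adjusted p = 1.1e-05, edgeR), whereas Klf4 was slightly higher, by 0.24 ± 0.055 (adjusted p = 0.00032, edgeR). Klf10 rose by 1.88 ± 0.11 (adjusted p = 5.3e-18, edgeR), at 41.7 ± 1.52 CPM in the tumour and 11.3 ± 1.55 CPM in the lymph node. Klf11 rose by 0.90 ± 0.20, Klf13 by 0.33 ± 0.065 and Klf6 by 0.28 ± 0.040. Klf7 fell to 13.3 ± 1.24 CPM in the tumour, against 25.3 ± 0.602 CPM in the lymph node, a log2 change of -0.92 ± 0.12 (adjusted p = 1.5e-08, edgeR). Klf12 passed at -0.86 ± 0.34 (adjusted p = 0.029, edgeR), but not without lymph node KO replicate 1 or 3 or tumour KO replicate 1 or 3, at -0.86 to -0.74, and Klf9 differed by 0.12 ± 0.16 and did not pass. The lymph node libraries labelled KO did not show lower Appl2. Under this label B cell markers were lower in the tumour for 10 of 10, at 50.2 to 54.3 CPM against 247 to 261 CPM in the lymph node. CD8 T and NK cell markers were higher for 8 of 8, at 250.4 to 257 CPM in the tumour and 27.9 to 31.9 CPM in the lymph node, and T cell markers for 9 of 10. Immediate early genes were higher for 13 of 15, at 7431 to 7835 CPM in the tumour and 5589.6 to 5814 CPM in the lymph node, and their part was not tested.

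In B cells the family was mostly higher in the tumour. Under the WT label 6 members rose and 1 fell, beside 15.7% and 14.3% of 13770 genes, with a median of 0.56 against 0.01. Klf2 averaged 105 ± 7.503 CPM in tumour B cells labelled WT and 67.8 ± 3.39 CPM in those of the lymph node (SD, n = 3), a log2 change of 0.70 ± 0.079 (adjusted p = 1.4e-06, edgeR). Klf10 averaged 5.96 ± 1.89 CPM in the tumour and 1.84 ± 0.165 CPM in the lymph node, a log2 change of 1.77 ± 0.32 (adjusted p = 0.00031, edgeR). Klf11 averaged 5.97 ± 1.36 CPM in the tumour and 2.06 ± 0.319 CPM in the lymph node, a log2 change of 1.61 ± 0.30 (adjusted p = 0.00046, edgeR). Klf4, Klf6 and Klf3 rose by 0.99 ± 0.12, 0.57 ± 0.063 and 0.36 ± 0.083. Klf13 fell, by -0.29 ± 0.079 (adjusted p = 0.0097, edgeR), or -0.26 without lymph node replicate 1 (adjusted p = 0.051, edgeR), and Klf9, Klf7 and Klf12 differed by 0.54 ± 0.25, 0.22 ± 0.15 and -0.49 ± 0.35 without passing. Macrophage and monocyte markers rose for 10 of 10 tested in this comparison, at 256 to 277 CPM in the tumour and 27.3 to 38.3 CPM in the lymph node. Melanoma markers rose for 9 of 9, at 712 to 842 CPM in the tumour and 16.04 to 20.8 CPM in the lymph node, where Mlana, Oca2 and Gpr143 were at 0. Immediate early genes rose for 13 of 15 and fell for 1, at 3457 to 3740.1 CPM in the tumour and 1728 to 1842 CPM in the lymph node. Heat shock genes rose for 5 of 9 and fell for 1. T cell markers fell for 7 of 9, B cell markers for 6 of 10 and stromal and endothelial markers for 6 of 7. The part of any of these transcripts was not tested. Under the KO label 5 members rose and 1 fell, beside 17.5% and 13.4% of 13567 genes, with a median of 0.82 against -0.02. Scaled by library totals, all genes split into 13.2% higher and 23.0% lower there, and the members into 5 higher and 2 lower. T cell markers rose here for 10 of 10, at 481 to 511 CPM in the tumour and 249 to 264 CPM in the lymph node, and CD8 T and NK cell markers for 6 of 6, at 47.6 to 55.7 and 6.39 to 9.11 CPM with Nkg7 at 0 in the lymph node. Heat shock genes rose for 9 of 9, at 47165 to 49537 CPM in the tumour and 19478 to 20442 CPM in the lymph node, and immediate early genes for 10 of 14. The part of these transcripts was not tested either. Klf10 rose by 2.46 ± 0.16 (adjusted p = 1.2e-07, edgeR), Klf4 by 2.15 ± 0.069 (adjusted p = 1.6e-10, edgeR), Klf11 by 1.70 ± 0.21 (adjusted p = 5.5e-05, edgeR), Klf9 by 1.42 ± 0.16 (adjusted p = 2.5e-05, edgeR) and Klf6 by 1.25 ± 0.075 (adjusted p = 6.8e-08, edgeR). Klf3 fell, by -0.41 ± 0.11 (adjusted p = 0.010, edgeR), or -0.35 without lymph node KO replicate 3 (adjusted p = 0.059, edgeR). Klf2 differed by 0.39 ± 0.17 (adjusted p = 0.11, edgeR) and passed without tumour KO replicate 2, at 0.56 (adjusted p = 0.015, edgeR), and Klf7 differed by 0.18 ± 0.16 (adjusted p = 0.42, edgeR) and passed without tumour KO replicate 1, at 0.38 (adjusted p = 0.018, edgeR). Klf12 and Klf13 differed by -0.87 ± 0.36 and 0.021 ± 0.079 and did not pass.

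**Figure D4:**
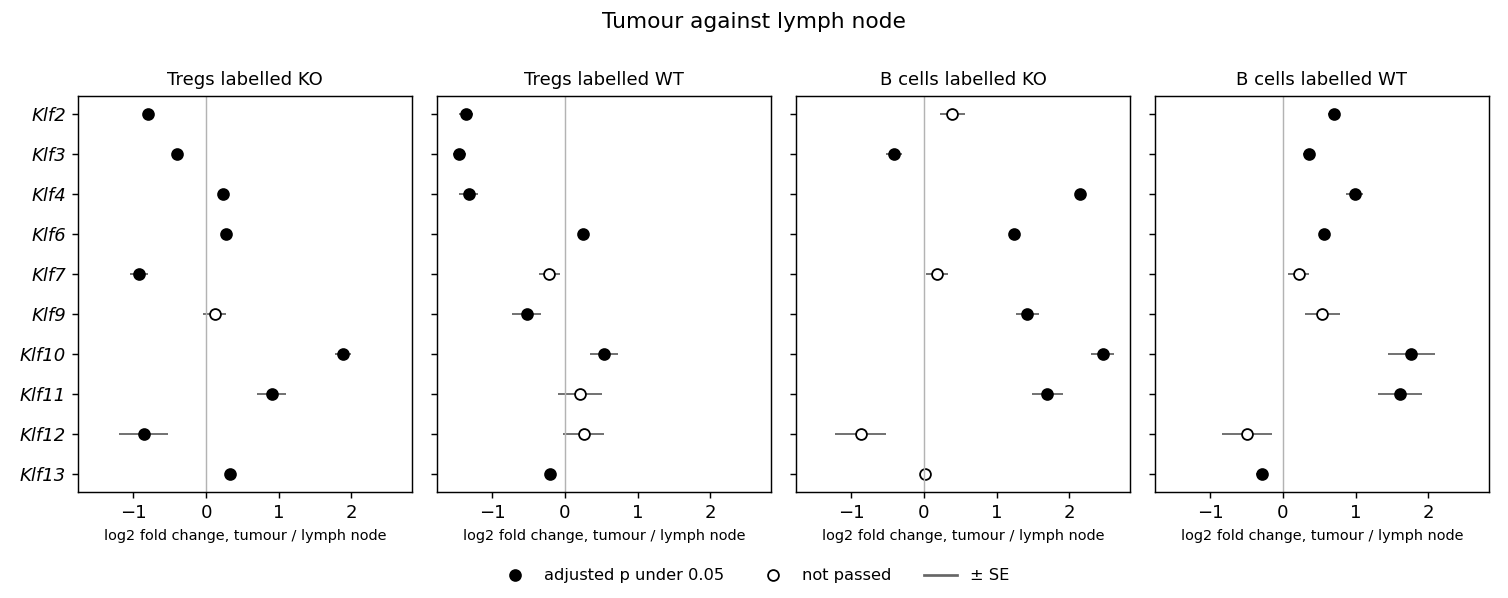
Log2 fold change of each of the 10 genes, tumour over lymph node, in Tregs labelled KO, Tregs labelled WT, B cells labelled KO and B cells labelled WT (6 libraries each). Bars are ± 1 approximate standard error, derived from the F statistic, and filled points passed at an adjusted p under 0.05. Klf2, Klf3 and Klf4 lie left of 0 in Tregs labelled WT, at -1.37, -1.46 and -1.32, and right of 0 in B cells labelled WT, at 0.70, 0.36 and 0.99.

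The opposite directions of Klf2, Klf3 and Klf4 in Tregs and B cells labelled WT were tested as an interaction of tissue with cell type, in which 7 members passed, beside 22.7% of 15873 genes. The tumour effect was lower in Tregs than in B cells for Klf4, by -2.34 ± 0.17 (adjusted p = 1.2e-10, edgeR), for Klf2, by -2.09 ± 0.12 (adjusted p = 1.2e-12, edgeR), and for Klf3, by -1.84 ± 0.13 (adjusted p = 2.2e-11, edgeR). Klf6 rose in the tumour in both cell types, with a log2 difference of -0.34 ± 0.082 (adjusted p = 0.0034, edgeR). Over the alternatives the Klf6 term was -0.38 to -0.25, and not all of these passed. Klf10, Klf11 and Klf9 passed at -1.26 ± 0.37 (adjusted p = 0.015, edgeR), -1.43 ± 0.44 (adjusted p = 0.018, edgeR) and -1.10 ± 0.33 (adjusted p = 0.016, edgeR). The Klf10 term was -1.11 to -1.06 and did not pass without tumour B cell replicate 1 or 3 or tumour Treg replicate 1 or 2. The Klf11 term was -1.30 to -1.17 and did not pass without lymph node Treg replicate 3, tumour B cell replicate 3 or tumour Treg replicate 1 or 3. The Klf9 term was -0.92 to -0.85 and did not pass without lymph node Treg replicate 3, tumour B cell replicate 3 or tumour Treg replicate 3. Over all genes 12.9% had a lower and 9.79% a higher term. Immediate early genes had a lower term for 12 of 15 and a higher one for 1, and heat shock genes a lower one for 6 of 9. Macrophage and monocyte markers and B cell markers were lower for 10 of 10 each, and T cell markers higher for 8 of 10. The part of these transcripts was not tested.

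Tregs and B cells labelled WT were also set side by side within each tissue. In the tumour 2 members were higher and 5 lower in Tregs, beside 32.8% and 31.3% of 14623 genes, with a median of -0.39 against 0.00. Melanoma markers were higher in tumour Tregs for 10 of 10, at 2708 to 2890.5 CPM in Tregs and 712 to 842 CPM in B cells. Macrophage and monocyte markers were lower for 10 of 10, at 37.2 to 49.1 CPM in Tregs and 256 to 277 CPM in B cells. Immediate early genes were lower for 11 of 15 and higher for 2, at 2388 to 2452 CPM in Tregs and 3457 to 3740.1 CPM in B cells. Heat shock genes were lower for 5 of 9 and higher for 3, and the part of any of these transcripts was not tested. Klf2 was at 19.6, 21.2 and 23.5 CPM in tumour Tregs and 101, 114 and 101 CPM in tumour B cells, a log2 change of -2.32 ± 0.10 (adjusted p = 1.4e-11, edgeR). Klf4 and Klf3 were lower in Tregs by -2.05 ± 0.13 (adjusted p = 2.6e-09, edgeR) and -1.52 ± 0.11 (adjusted p = 7.5e-09, edgeR), and Klf7 by -0.75 ± 0.17 (adjusted p = 0.0011, edgeR). Klf6 was higher in Tregs, by 0.55 ± 0.057 (adjusted p = 6.6e-07, edgeR), and Klf10 by 0.79 ± 0.25 (adjusted p = 0.013, edgeR), or 0.58 without Treg replicate 3 (adjusted p = 0.095, edgeR). Klf11 passed as lower, at -0.79 ± 0.31 (adjusted p = 0.035, edgeR), but not without B cell replicate 3 or Treg replicate 1 or 3, at -0.59, -0.68 and -0.61. Klf9, Klf12 and Klf13 differed by 0.12 ± 0.25, 0.64 ± 0.35 and -0.021 ± 0.082 without passing. In the lymph node 4 members were higher and 2 lower in Tregs, beside 33.1% and 30.5% of 14624 genes, with a median of 0.28 against 0.01. Heat shock genes were higher in lymph node Tregs for 9 of 9 and immediate early genes for 8 of 15, with 5 lower, and their part was not tested. There Klf2 differed less, at 52.6, 55.8 and 57.5 CPM in Tregs and 71.5, 66.8 and 64.97 CPM in B cells, a log2 change of -0.25 ± 0.074 (adjusted p = 0.0037, edgeR). Over the alternatives the Klf2 change was -0.29 to -0.21, and not all of these passed. Scaled by library totals, 5 members were higher and 1 lower, beside 34.9% and 28.5% of all genes. Klf10 was higher in lymph node Tregs by 2.03 ± 0.26 (adjusted p = 1.4e-07, edgeR), Klf9 by 1.20 ± 0.21 (adjusted p = 1.2e-05, edgeR), Klf6 by 0.87 ± 0.058 (adjusted p = 2.0e-13, edgeR) and Klf3 by 0.30 ± 0.072 (adjusted p = 0.00062, edgeR). Klf7 passed as lower, at -0.32 ± 0.13 (adjusted p = 0.039, edgeR), but not without B cell replicate 1 or 2 or Treg replicate 1 or 3, at -0.31 to -0.24. Klf4 missed the threshold at 0.27 ± 0.12 (adjusted p = 0.051, edgeR) and passed without B cell replicate 1, at 0.35, or Treg replicate 3, at 0.31, and Klf11, Klf12 and Klf13 differed by 0.61 ± 0.33, -0.11 ± 0.28 and -0.10 ± 0.069.

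Set in order of their group means, the members had different extremes. Tumour Tregs labelled WT were the lowest group for Klf2, Klf3, Klf4 and Klf7, and lymph node B cells labelled WT the lowest for Klf6, Klf9, Klf10 and Klf11. Tumour B cells labelled KO were the highest group for Klf2, Klf4, Klf7, Klf9 and Klf11, and tumour Tregs labelled KO for Klf6, Klf10 and Klf13. Neighbours in these orders often overlapped: for Klf2 the order ran from tumour B cells labelled KO over lymph node B cells labelled KO to tumour B cells labelled WT with overlapping libraries, and for Klf12 every group overlapped the next. In the order of Klf3 the highest 4 groups, tumour B cells labelled WT, lymph node B cells labelled KO, lymph node Tregs labelled KO and lymph node Tregs labelled WT, had means of 73.8, 73.3, 73.1 and 72.4 CPM and overlapped.

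Genes that KLF2 is known to maintain in mouse lymphocytes moved with the genotype label in part. Of the 4 trafficking genes listed, 3 rose and 1 fell in Tregs of the tumour, beside 27.3% and 27.2% of all genes tested. In those of the lymph node 1 rose, beside 13.8%. In B cells 2 rose in either tissue, beside 21.3% of all genes in the tumour and 11.0% in the lymph node. S1pr1, the sphingosine phosphate receptor for exit from lymphoid tissue, was read at 78.5, 86.1 and 84.5 CPM in tumour Tregs labelled KO and 36.4, 42.2 and 41.98 CPM under the WT label, a log2 change of 1.05 ± 0.081 (adjusted p = 6.8e-14, edgeR). S1pr1 in tumour B cells had 132, 143 and 138 CPM (labelled KO) and 90.2, 78.6 and 76.9 CPM (labelled WT), a log2 change of 0.75 ± 0.085 (adjusted p = 1.0e-05, edgeR). In the lymph node, where Klf2 rose too, S1pr1 differed by -0.11 ± 0.059 (adjusted p = 0.17, edgeR) in Tregs and -0.12 ± 0.070 (adjusted p = 0.25, edgeR) in B cells on the log2 scale. Ccr7, the chemokine receptor for lymph node entry, rose in all 4 comparisons, in Tregs by 1.31 ± 0.12 (tumour) and 0.61 ± 0.066 (lymph node), and in B cells by 0.89 ± 0.079 (tumour) and 0.68 ± 0.064 (lymph node). Itgb7, a subunit of the gut-homing integrin, fell in tumour Tregs, by -0.18 ± 0.049 (adjusted p = 0.0024, edgeR), and rose in lymph node B cells, by 0.30 ± 0.086 (adjusted p = 0.011, edgeR). S1pr4, a related sphingosine phosphate receptor, rose in tumour Tregs, by 0.51 ± 0.18 (adjusted p = 0.020, edgeR), and did not pass in the other 3 comparisons. Between tissues in Tregs labelled WT, S1pr1 and Ccr7 were lower in the tumour along with Klf2, by -1.38 ± 0.077 and -1.70 ± 0.10.

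**Figure D5:**
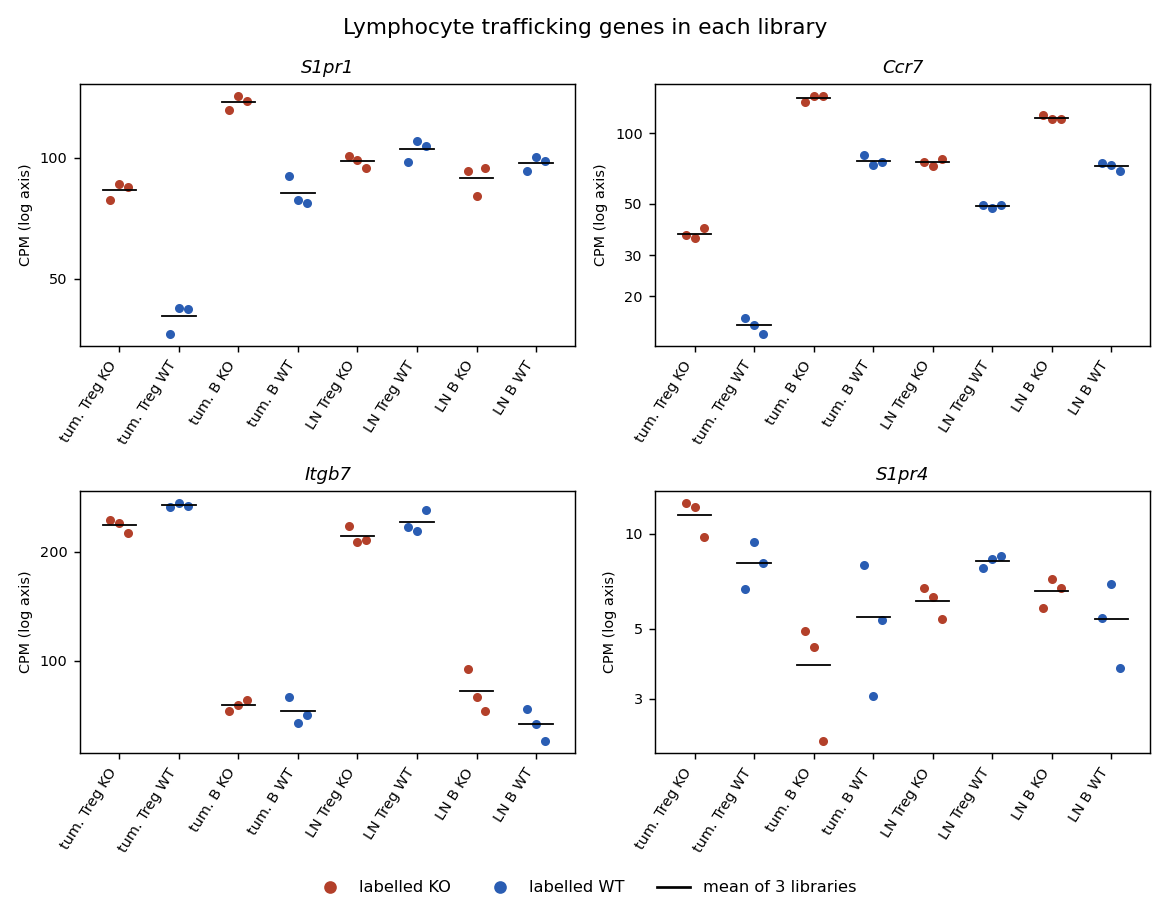
Level of the trafficking genes S1pr1, Ccr7, Itgb7 and S1pr4 in each of the 24 libraries, in CPM on log axes that differ between panels, with red points for libraries labelled KO, blue for WT and a bar for the mean of 3. In the Ccr7 panel red lies above blue in each pair of groups, and in the S1pr1 panel it does so in the tumour pairs only.

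Among 10 listed regulators of KLF2, 5 rose and 1 fell in tumour Tregs, beside 27.3% and 27.2% of all genes tested. In tumour B cells 5 rose, beside 21.3% of all genes that rose and 18.8% that fell. In lymph node Tregs 6 rose, beside 13.8% and 11.5%, and in lymph node B cells 5 rose, beside 11.0% and 10.1%. None fell in those 3. Mef2c and Mef2d, which the kinase ERK5 activates to induce KLF2, rose in each: Mef2d in Tregs by 0.85 ± 0.058 (tumour) and 0.49 ± 0.057 (lymph node), and in B cells by 0.56 ± 0.069 (tumour) and 0.46 ± 0.059 (lymph node). Mef2c is abundant in B cells, at 1907 ± 195 CPM in KO-labelled tumour B cells and 865 ± 23.6 CPM under the WT label. In lymph node Tregs it was read at 93.99 ± 4.98 CPM (KO) and 13.5 ± 2.55 CPM (WT), where B cell markers rose too. Foxo1, a direct activator of Klf2, had 55.5 ± 1.56 CPM in tumour Tregs labelled KO and 28.9 ± 5.696 CPM under the WT label, a log2 change of 0.94 ± 0.10 (adjusted p = 6.0e-10, edgeR). It also rose, by 0.58 ± 0.11 in tumour B cells and 0.74 ± 0.069 in lymph node B cells. The TGF-beta genes listed as inputs to Klf10 and Klf11 rose for 5 of 7 in Tregs of the tumour and 3 in those of the lymph node. They rose for 2 in B cells of the tumour and 4 in those of the lymph node, with none lower, beside the same shares of all genes. The receptor gene Tgfbr2 changed by 0.88 ± 0.059 in tumour Tregs, 0.58 ± 0.071 in tumour B cells and 0.44 ± 0.051 in lymph node B cells, and the ligand Tgfb1 by 0.71 ± 0.060, 0.30 ± 0.090 and 0.50 ± 0.065.

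Of 11 listed corepressors and coactivators of the family, 5 rose and 2 fell in tumour Tregs, beside 27.3% and 27.2% of all genes tested. In tumour B cells 4 rose and 1 fell, beside 21.3% and 18.8%. In lymph node Tregs 3 rose, beside 13.8% of all genes that rose and 11.5% that fell. Of 10 tested in lymph node B cells 3 rose, beside 11.0% and 10.1%. With lists this short such counts are imprecise, and whether they exceed these shares was not tested. The coactivator Crebbp rose by 0.66 ± 0.058 in tumour Tregs, 0.70 ± 0.081 in tumour B cells and 0.37 ± 0.049 in lymph node Tregs. Sap30, a subunit of the Sin3A complex, rose by 0.74 ± 0.090 in tumour Tregs, 0.45 ± 0.11 in lymph node Tregs and 1.11 ± 0.11 in lymph node B cells. Ctbp2, a corepressor that Klf3 and Klf12 bind, was nearly unread in B cells, at 27 counts over the tumour libraries labelled KO and 80 counts over those labelled WT, a log2 change of -1.69 ± 0.56 (adjusted p = 0.028, edgeR). Beside the same shares of all genes, those listed for lymphocyte quiescence rose for 6 and fell for 1 of 8 in tumour Tregs. The counts were 5 and 1 in tumour B cells, 5 and 1 in lymph node Tregs, and 6 and 0 in lymph node B cells. The antiproliferative Tob2 rose in Tregs by 1.71 ± 0.065 (tumour) and 1.35 ± 0.054 (lymph node), and in B cells by 2.18 ± 0.083 (tumour) and 1.45 ± 0.060 (lymph node). Slfn2, which keeps T cells quiescent in mice, rose in tumour Tregs, by 1.05 ± 0.041, and fell in lymph node Tregs, by -0.77 ± 0.043.

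The rest of the family and the related SP factors, 16 genes, were in part unread or low, and some of those tested changed with the label. Klf14, Klf17 and Sp8 had 0 reads in all 8 groups, and at most 9 genes passed the filter on low counts in a comparison. In tumour Tregs 4 of 9 tested rose and 1 fell, beside 27.3% and 27.2% of all genes. Of 7 in tumour B cells 3 rose and 0 fell, beside 21.3% and 18.8%. Of 8 in lymph node Tregs 1 rose and 0 fell, beside 13.8% and 11.5%. Of 7 in lymph node B cells 2 rose and 1 fell, beside 11.0% and 10.1%. Klf16 rose in all 4, by 1.61 ± 0.22 in tumour Tregs, at 11.5 ± 1.47 CPM labelled KO and 3.78 ± 1.05 CPM labelled WT, 0.78 ± 0.20 in lymph node Tregs, and in B cells by 0.79 ± 0.22 (tumour) and 0.97 ± 0.27 (lymph node). Sp1, the prototype of the SP factors, rose in tumour B cells by 0.52 ± 0.085 (adjusted p = 0.00024, edgeR) and in lymph node B cells by 0.15 ± 0.054 (adjusted p = 0.041, edgeR). It differed by -0.14 ± 0.071 and -0.13 ± 0.056 in tumour and lymph node Tregs without passing. Sp2 rose in tumour B cells by 0.83 ± 0.12 (adjusted p = 0.00011, edgeR) and in tumour Tregs by 0.50 ± 0.12 (adjusted p = 0.00041, edgeR). Sp3 rose in tumour Tregs by 0.43 ± 0.070 (adjusted p = 1.7e-06, edgeR). Neither passed in the other comparisons of genotype labels. Klf15 had 0 counts in the tumour Tregs labelled KO and 47 counts in those labelled WT.

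Over the 8 group means, which share libraries and depth with every other gene, each member with a mean of at least 5 CPM was compared with 10060 genes by Pearson's correlation of log2(CPM + 1). Given as a description, the closest genes to Klf2 were Parp8, Ccr7 and Eeig2, with r = 0.988, 0.981 and 0.976. Those closest to Klf4 were Dnajb9, Slc25a25 and Taf5, with r = 0.989, 0.981 and 0.975, and those closest to Klf6 were Gm8355, Smdt1 and Rrad, with r = 0.991, 0.983 and 0.980. Klf10 was most like Atp2b1, Ubb and Sfr1, with r = 0.973, 0.973 and 0.970. Klf3 had weaker matches in Cdyl2, Arhgef3 and Rps29, with r = 0.938, 0.933 and 0.931. Among the members themselves Klf6 and Klf10 had the highest likeness, r = 0.933 over 8 groups, followed by Klf2 and Klf7 with r = 0.900, and Klf3 and Klf10 the lowest, r = -0.239.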

How the data were processed

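Per the labels, 24 libraries fall into 8 groups of 3, and 1 count table, with reads per gene, was deposited by the authors. Per the labels' protocols, RNA was extracted with TRIzol and libraries were made with a KC-Digital stranded mRNA kit. Per the submitters' processing notes, fastp 0.23.4, STAR 2.5.3a and featureCounts were used, and the builds GRCh38 and GRCm39 are named. The sources used here do not give the annotation release or the strand setting. Among counts of 1 to 10, 69.7% to 75.8% were even, so counts may exceed the number of independent fragments. Coordinates and exon lengths are those of the deposited table.

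Counts were tested as deposited with edgeR 4.0.16 in R 4.3.3, by the quasi-likelihood F test, two-sided, with TMM scaling, edgeR's filter on low counts and Benjamini-Hochberg adjustment over all genes tested. Each of 10 comparisons used its 6 libraries, and each of 4 interactions its 12. Only the fits of tumour Tregs between labels and of the interaction with tissue in Tregs were run on simulated counts with known changes. Every gene was given the same spread there, so the other fits and groups with unlike libraries were not tested that way. Levels in CPM are counts per library of 1000000, scaled by TMM over the 24 libraries, and per kilobase they are divided by the summed exon length.

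The text names all 10 members, Appl2, up to 4 genes of each other list with the smallest p in a comparison, and the 3 genes most like a member, besides genes singled out in counts of 5 or fewer or at 0, which were chosen after their values were seen. 1 gene of the trafficking list is not reported here and is not counted in it. Members and lists were chosen with earlier results of these data known. Alternatives were upper-quartile, size-factor (RLE) and library-total scaling, no filter, a filter of 1 CPM in 3 libraries, DESeq2 1.42.0, all 24 libraries in 1 fit, a replicate block and each library left out. Totals of 6245822 to 16239055 counts per library limit the precision of members read at few counts.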

Additional observations from a re-analysis of the deposited data

Results flagged for a closer look

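For 24 results the effect differed between 2 tissues or 2 cell types by an interaction test that passed, which set them apart. Each value is a difference of log2 fold changes.

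The change with the KO label was larger in tumour than in lymph node Tregs for Klf4 (1.57), Klf10 (1.35), Klf3 (1.07), Klf9 (0.66), Klf2 (0.58) and Klf13 (0.54), and smaller in the tumour for Klf12 (-1.11) and Klf7 (-0.70). The lymph node term follows a genotype label that the Appl2 level did not follow, and the values for Klf9 and Klf12 missed the threshold without any 1 of several libraries.

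In B cells the change with the KO label was larger in tumour than in lymph node for Klf4 (1.18), Klf9 (0.90), Klf6 (0.69) and Klf13 (0.32), and lower for Klf3 (-0.75). Klf13 and Klf9 missed the threshold when libraries were scaled by their totals.

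Within the tumour the change with the KO label was higher in Tregs than in B cells for Klf3 (1.57) and Klf2 (0.77), and lower for Klf9 (-0.85) and Klf6 (-0.33). The Klf9 and Klf6 differences missed the threshold when libraries were scaled by their totals. The Klf3 difference joins a rise in Tregs and a fall in B cells.

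Among libraries labelled WT, the difference of tumour from lymph node was lower in Tregs than in B cells for Klf4 (-2.34), Klf2 (-2.09), Klf3 (-1.84), Klf11 (-1.43), Klf10 (-1.26), Klf9 (-1.10) and Klf6 (-0.34). Klf2, Klf3 and Klf4 were lower in the tumour in Tregs and higher in the tumour in B cells. The values for Klf6, Klf9, Klf10 and Klf11 did not pass under every alternative.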

How the results depend on the processing

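Over 14 comparisons and their alternatives, 2041 recomputed member changes kept their direction and their side of the threshold, 113 kept the direction but no longer passed, 22 newly passed and 34 changed sign. None of the 34 belonged to a member that had passed as reported.

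With upper-quartile scaling the differences that changed sign were Klf7 in tumour Tregs (-0.049) and Klf3 in lymph node Tregs (-0.031) between genotype labels, and Klf13 between tissues in B cells labelled KO (-0.013). Scaling by library totals gave -0.12, -0.048 and -0.12 for the same 3, -0.013 for Klf9 in lymph node Tregs, and interaction terms of genotype label with tissue of -0.032 for Klf6 in Tregs and -0.085 for Klf11 in B cells. All 24 libraries in 1 fit gave -0.026 for Klf7 in tumour Tregs. Library totals also moved the median of all genes, to -0.16 between tissues in B cells labelled KO, -0.21 in the interaction with tissue in B cells and 0.11 in that with cell type in the tumour, and upper-quartile scaling moved it to -0.11 in tumour B cells between labels.

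The number of members that passed was within 1.5 times the reported one except for tumour against lymph node in Tregs labelled WT, which had 7 and with DESeq2 4, the interaction of genotype label with tissue in B cells, which had 5 and with library totals 3, and single libraries left out. DESeq2 no longer passed Klf9, Klf10 and Klf13 in that first comparison (adjusted p = 0.12, 0.11 and 0.071).

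With 1 library left out at a time, the members that passed between genotype labels numbered 9 to 9 in tumour Tregs, 5 to 6 in lymph node Tregs, 7 to 9 in tumour B cells and 7 to 8 in lymph node B cells. Between tissues they numbered 8 to 9 in Tregs labelled KO, 4 to 7 in those labelled WT, 5 to 7 in B cells labelled KO and 6 to 7 in those labelled WT. Between cell types labelled WT they numbered 5 to 7 in the tumour and 5 to 6 in the lymph node. The interactions had 6 to 9 with tissue in Tregs, 3 to 5 with tissue in B cells, 2 to 5 with cell type in the tumour and 4 to 7 of tissue with cell type. The lowest counts, 4, 3, 2 and 4 in those with over 1.5-fold shifts, came without lymph node Treg WT replicate 3 for tissue in Tregs labelled WT, without lymph node B cell KO replicate 2 or 3, tumour B cell KO replicate 2 or tumour B cell WT replicate 1 for tissue in B cells, without tumour Treg WT replicate 1 for cell type in the tumour, and without tumour B cell WT replicate 3 for tissue with cell type.

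Leaving out 1 library also changed the sign of small differences. They ranged over -0.068 to 0.12 for Klf7 in tumour Tregs, -0.045 to 0.037 for Klf3 and -0.11 to 0.23 for Klf9 in lymph node Tregs, and -0.20 to 0.28 for Klf12 and -0.00062 to 0.087 for Klf13 in lymph node B cells. Between tissues the range was -0.11 to 0.37 for Klf11 in Tregs labelled WT and -0.016 to 0.071 for Klf13 in B cells labelled KO. Between cell types it was -0.047 to 0.30 for Klf9 and -0.057 to 0.035 for Klf13 in the tumour and -0.29 to 0.068 for Klf12 in the lymph node. The interaction with tissue ranged over -0.0025 to 0.070 for Klf6 in Tregs and -0.17 to 0.18 for Klf7 in B cells.

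No pairing by replicate number was seen. The correlation of same-numbered libraries' deviations from their group means was -0.131 to 0.068 over the 10 comparisons. In these, 0 to 4 of 6 libraries were most like the library of their own number, with 4 between tissues in B cells labelled WT. Such low values among 3 libraries per group cannot exclude that same-numbered libraries share a mouse. With the replicate number as a block, Klf3 in lymph node Tregs was -0.0013, Klf7 in tumour B cells passed at 0.46 (edgeR, adjusted p = 0.027), and Klf11 between cell types in the tumour (-0.81), Klf9 and Klf12 in the interaction with tissue in Tregs (0.65 and -1.11) and Klf9 in that with cell type (-0.85) no longer passed (edgeR, adjusted p = 0.058, 0.060, 0.052 and 0.070). The cause of these shifts was not tested. Klf12, Klf11 and Klf9 had the lowest mean CPM over the 24 libraries, which limits what their differences can show.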
